A study of Sus scrofa with 15 samples.

Results

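Backfat RNA of Landrace and Taihu pigs was set against each other directly at month 1 and at month 2, on 1 array per month, and these 2 arrays of 15 in the series are described here. Backfat is the subcutaneous fat along the back. Landrace is a European breed kept for lean meat, and Taihu is a Chinese breed group known for its prolificacy and for depositing more fat. Subcutaneous fat grows in young pigs as precursor cells turn into adipocytes and as those cells fill with lipid, and breed differences in this tissue are studied because they bear on carcass leanness.

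On both arrays the Landrace RNA was labelled with Cy3 and the Taihu RNA with Cy5. The 4 RNA samples compared were Landrace at month 1, Taihu at month 1, Landrace at month 2 and Taihu at month 2, with no treatment named. Whether a sample stands for 1 animal or a pool of animals is not given in the labels. Each RNA sample was also on 2 further arrays of a closed loop within its breed (month 2 against 1, 3 against 2, 4 against 3, 5 against 4 and 1 against 5, with the month named first in Cy3), so that each of the 10 RNA samples of the series was on 3 arrays. With 1 RNA sample per breed and month, all errors and p-values below cover disagreement between arrays and not the spread between animals.

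The files give each spot a position code, such as Sr01R07C02 for row of blocks 1, row 7 and column 2, and no gene name. Positions are therefore named by code, with at most 2 in each direction, and the tissue could not be checked against marker genes. Fewer cells of a type and less RNA per cell cannot be told apart in these bulk samples. There were 140 positions printed in 4 copies each, 1 copy per column of blocks, and 138 of them had a value on every array. Values are log2 of Landrace over Taihu, so that a positive value means more in Landrace. The dye effect of each position was taken from the mean log ratio of the 10 loop arrays, where breed and month cancel, and was subtracted. A position was called when limma's fit to all 15 arrays gave an adjusted p under 0.05.

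Both arrays read all 140 positions at least 2 background SDs above background in both channels. Log ratios of the 4 copies correlated with r between 0.985 and 0.993 on the month 1 array and between 0.943 and 0.991 on the month 2 array. Median signal on the month 1 array was 1283 for Landrace and 1252 for Taihu. On the month 2 array it was 1543 for Landrace and 2121 for Taihu, and it was uneven: from the first to the last column of blocks it went from 1023 to 2319 for Landrace and from 1193 to 3242 for Taihu, while the root mean square breed difference went from 0.53 to 0.65. Spots at the scanner ceiling numbered 20 (Landrace) and 13 (Taihu) of 560 at month 1, and 11 and 24 of 560 at month 2. The dye effect had a root mean square of 0.32 and correlated between the Landrace loop and the Taihu loop with r = 0.81 across positions, which are not independent replicates.

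At month 1 the larger differences lay on the Landrace side. Landrace was at least 1.5-fold higher at 26 of 138 positions on the month 1 array (18.8%), and Taihu at 11 (7.97%). At a size of 2-fold the counts were 15 and 1. By limma, 26 positions were called higher in Landrace (18.8%) and 19 higher in Taihu (13.8%). The median fitted difference of the first group was 0.93 and that of the second was -0.62, against -0.0038 over all 138 positions. With normexp background correction and loess the calls were 22 and 32, with more on the Taihu side. Readings at the ceiling on some array were present at 11 of the 45 calls, against 19 of 140 positions. Without such positions the root mean square difference on the month 1 array was 0.50, against 0.72 with them.

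The position with the highest excess in Landrace was Sr01R05C08. Its mean signal at month 1 was 8763 in Landrace and 1175 in Taihu, and its 4 copies read 3.47, 3.47, 3.52 and 3.58. The array value was 3.51 (SD 0.05, 4 copies), an 11.4-fold difference, and the fit gave 3.78 (SE 0.56, adjusted p 0.0029). All 4 copies were far above 0, which the choice of the position favours. The dye effect of Sr01R05C08 was -0.13 in the Landrace loop and -1.26 in the Taihu loop, and 6 of its 120 readings over the series were at the ceiling.

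Sr02R06C03 had a mean signal of 16005 in Landrace and 3354 in Taihu at month 1, with copies at 2.43, 2.52, 2.60 and 2.45. The fit for Sr02R06C03 gave 2.43 (SE 0.35, adjusted p 0.0027). Here too no copy came near 0, and 11 of 120 readings of Sr02R06C03 over all arrays were at the ceiling, 0 of them on the month 1 array. Without that array the fit still gave 2.32 for Sr02R06C03, but the call was lost (adjusted p 0.074).

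On the Taihu side Sr02R04C06 stood apart. Its signal was 2040 in Landrace and 6383 in Taihu, its copies read -1.57, -1.52, -1.41 and -1.47, and the fit gave -1.5 (SE 0.24, adjusted p 0.0041), with 0 readings at the ceiling. Without the month 1 array the call of Sr02R04C06 was lost (adjusted p 0.080). Sr02R04C01 followed, with a signal of 1949 in Landrace and 3644 in Taihu. Its copies lay between -1.0 and -0.75, and the fit for Sr02R04C01 gave -0.90 (SE 0.13, adjusted p 0.0027). Taihu was the higher breed in every copy of both positions, which were chosen for large differences.

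The difference at month 1 can also be had without the month 1 array, by summing the month 2 array and the loop arrays of month 2 against month 1 in both breeds. This second route had the sign of the array at all 37 positions that were 1.5-fold apart, and 27 of them were 1.5-fold apart on it too. Choosing positions by their size on the array favours the same sign. Over 138 positions the array and the second route correlated with r = 0.87, sharing RNA samples and dye estimate. Their root mean square disagreement, from which the dye effect cancels, was 0.38 over 140 positions. The count of 45 calls depended on single arrays: 5 were called without the month 1 array itself, 23 without the Landrace array of month 2 against 1, and 21 without the Taihu array of month 1 against 5.

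At month 2 the larger differences lay on the Taihu side. Taihu was at least 1.5-fold higher at 24 of 138 positions on the month 2 array (17.4%), and Landrace at 13 (9.42%). At a size of 2-fold the counts were 7 and 4. By limma, 22 positions were called higher in Taihu (15.9%) and 16 higher in Landrace (11.6%). Their median fitted differences were -0.81 and 0.65, against 0.05 over all 138 positions. Centred on the shared positions at the head of each block the calls were 23 and 8, and with no dye term they were 17 and 7.

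Sr02R06C04 carried the widest difference at month 2. Its mean signal was 3403 in Landrace and 32832 in Taihu, and its copies read -2.19, -2.25, -2.52 and -2.55 from the first to the last column of blocks. The fit for Sr02R06C04 gave -2.16 (SE 0.55, adjusted p 0.020). At month 1 the same position had read 1.64 on the array (signal 12917 in Landrace and 5635 in Taihu), but its fitted 1.32 did not pass (adjusted p 0.11), and another route to month 1, over the month 5 array, gave -0.43 for Sr02R06C04. The 2 breed arrays thus placed it on opposite sides, and only the month 2 side was called. That call was lost without the month 2 array (adjusted p 0.24), the Landrace array of month 3 against 2 (0.057), the Taihu array of month 1 against 5 (0.051) or the Taihu array of month 2 against 1 (0.10). With single arrays left out, the fitted month 2 value of Sr02R06C04 stayed between -2.43 and -1.87.

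The next Taihu position, Sr01R07C02, is described among the reversals. On the Landrace side Sr01R04C06 led at month 2, with a signal of 2415 in Landrace and 1015 in Taihu and copies at 1.47, 1.65, 1.72 and 1.83. The fit for Sr01R04C06 gave 1.59 (SE 0.16, adjusted p 0.00051). At month 1 its signals were 452 in Landrace and 509 in Taihu, and the fitted 0.13 for Sr01R04C06 did not pass (adjusted p 0.63). Sr02R06C02 followed, with a fitted 1.26 at month 2 (SE 0.13, adjusted p 0.00051).

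The second route to month 2, without the month 2 array, had the sign of the array at all 37 positions that were 1.5-fold apart. Their size on the array again favours this. Of the 37, 25 were 1.5-fold apart on the second route too. The correlation was r = 0.81 over 138 positions. This route and the second route to month 1 combine the same arrays. Each position's disagreement with the array is therefore the same size at both months, with the sign turned. Another route, through month 3, differed from the month 2 array by a root mean square of 0.61. The route to month 1 over month 5 differed from the month 1 array by 0.39. Of 38 calls at month 2, the number fell to 4 without the month 2 array, 20 without the Landrace array of month 3 against 2, 21 without the Taihu array of month 2 against 1 and 25 without the Taihu array of month 1 against 5.

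In all, 66 of 138 positions were called at month 1 or month 2: 28 at month 1 alone, 21 at month 2 alone and 17 at both. A call at a single month does not show that the months differ, which the test of the change below addresses. At the later months 25 positions were called at month 3 (18.1%), 21 at month 4 (15.2%) and 7 at month 5 (5.07%). The root mean square difference on the arrays of months 1 to 5 was 0.72, 0.58, 0.76, 0.84 and 0.43. Over positions with no reading at the ceiling it was 0.50, 0.58, 0.42, 0.44 and 0.38, which put month 2 first; these orders were not tested.

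**Figure D1:**
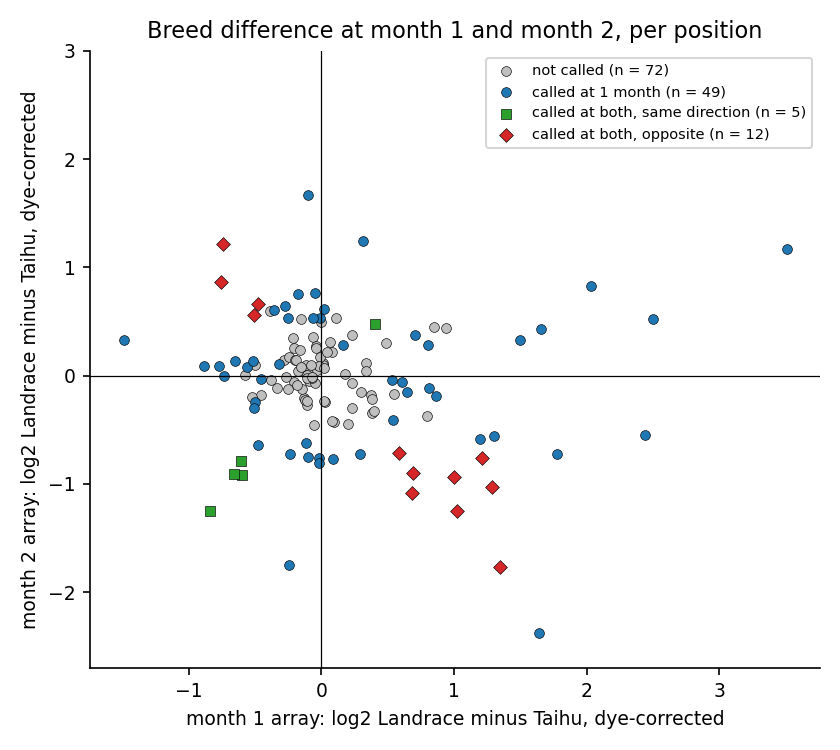
Each point is 1 of 138 positions, with the dye-corrected log2 difference (Landrace minus Taihu, mean of 4 copies) on the month 1 array across and on the month 2 array upward; colours give limma's calls at adjusted p under 0.05. The 12 positions called in opposite directions form 2 groups, 8 at the lower right (Landrace at month 1, Taihu at month 2) and 4 at the upper left, and 5 positions were called in the same direction.

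The change of the breed difference from month 1 to month 2 could be measured in separate ways that share RNA but no array. On the breed arrays it is the month 2 value minus the month 1 value, and on the loop arrays it is the Landrace step from month 1 to 2 minus the Taihu step. The dye effect cancels from both. These are the same 4 arrays as in the second routes above, so this is the same comparison in another form and not further support. The change was at least 1.5-fold on the breed arrays at 58 of 140 positions. The loop arrays gave the same sign at 56 of these 58, and at least 1.5-fold with that sign at 48. Over all 140 positions, whatever the size of the change, the sign was the same at 116 (82.9%). Across the 140 positions the correlation was r = 0.92 (rank correlation 0.85), and 0.90 over the 121 positions without a ceiling reading on any array, as a description over positions that share RNA samples. The root mean square change was 0.98 on the breed arrays and 0.95 on the loop arrays.

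By limma the change was called at 59 of 138 positions, 27 toward Landrace (19.6%) and 32 toward Taihu (23.2%). Centred on the shared positions, the split became 19 and 44, and the median change over all positions moved from 0.01 to -0.19. The count stayed between 40 and 71 when any single array was left out. The widest change among the named positions was that of Sr02R06C04, at -4.02 on the breed arrays, -3.49 on the loop arrays and -3.48 in the fit (SE 0.61, adjusted p 0.0024). Sr01R05C08 moved toward Taihu without crossing 0 on the arrays: from 3.51 at month 1 to 1.17 at month 2, a fitted change of -2.81 (SE 0.62, adjusted p 0.0063). At month 2 limma's fitted 0.97 was not called (adjusted p 0.26), and the route through month 3 gave -0.14 for Sr01R05C08. Its signal at month 2 was 16281 in Landrace and 14263 in Taihu before dye correction, so the signal of Sr01R05C08 was higher in both breeds than at month 1, and more so in Taihu. Sr02R06C03 changed in the same way, by -2.05 in the fit (SE 0.39, adjusted p 0.0033), with 1 Taihu copy at the ceiling on the month 2 array. Sr02R04C06 went the other way, from -1.49 to 0.33 on the arrays, a fitted change of 1.84 (SE 0.26, adjusted p 0.00097).

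**Figure D2:**
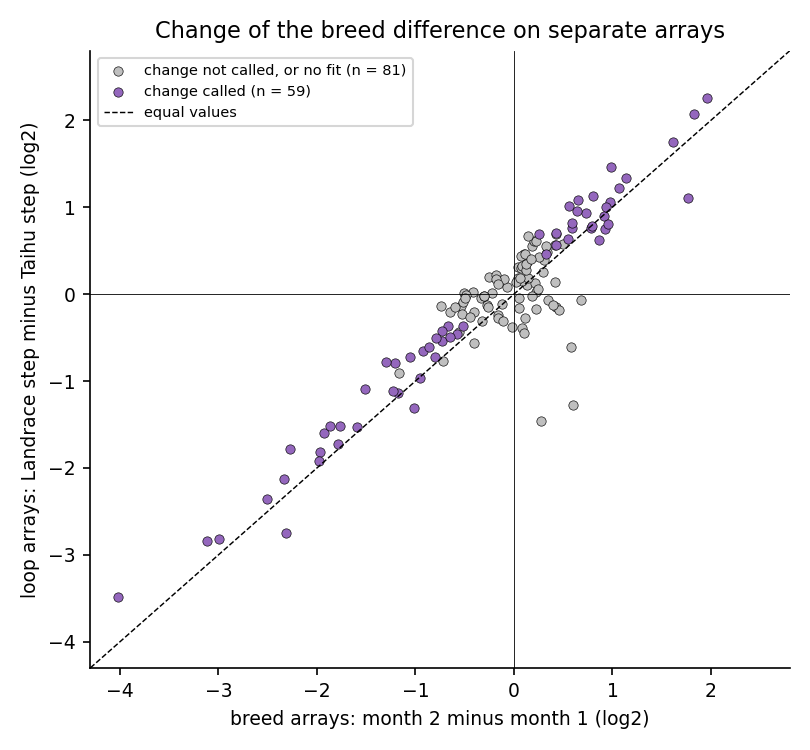
Each point is 1 of 140 positions, with the change of the breed difference from month 1 to month 2 (log2) on the 2 breed arrays across and on the 2 loop arrays of month 2 against month 1 upward; the dashed line marks equal values. Points called by limma (59) lie along the line from -4.02 to 1.96 on the breed arrays, and the correlation is r = 0.92.

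Reversals were counted as positions called at both months in opposite directions. There were 12 among the 17 called at both: 8 went from Landrace to Taihu and 4 from Taihu to Landrace. Over all 138 positions, 78 had opposite signs on the 2 breed arrays (56.5%), whatever their size. Judged by the breed arrays alone, 18 positions were 1.5-fold apart at both months and 12 of these were on opposite sides, 10 from Landrace to Taihu and 2 from Taihu to Landrace. The loop arrays gave a change of at least 1.5-fold in the same direction at all 12, and 9 of the 12 were also called opposite. Choosing positions 1.5-fold apart on opposite sides favours such a change, so this is a description. Of the 6 positions on the same side, the loop arrays changed by at least 1.5-fold at 2. The called count depended on few arrays, since 0 were called opposite without the month 1 array, 1 without the month 2 array, 2 without the Taihu array of month 1 against 5 and 3 without the Landrace array of month 2 against 1. With no dye term it was 3, and with the copies of a single column of blocks, chosen after seeing the data, it was 7, 10, 4 and 4.

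The 8 positions that went from Landrace to Taihu had array values from 0.58 to 1.34 at month 1 (median 1.01) and from -1.77 to -0.71 at month 2 (median -0.98). Their change was -1.95 in the median on the breed arrays and -1.69 on the loop arrays.

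Sr01R07C02 had the clearest reversal by the naming rule. At month 1 its signal was 3520 in Landrace and 1607 in Taihu, and its copies read 1.28, 1.39, 1.35 and 1.36. At month 2 its signal was 898 in Landrace and 5098 in Taihu, and its copies read -1.5, -1.59, -1.97 and -2.01. The copies of the 2 months do not overlap, which the naming rule favours, and copies on 1 array share its RNA. At month 2 the copies drifted with the column of blocks. The fit for Sr01R07C02 gave 1.25 at month 1 (SE 0.32, adjusted p 0.019) and -1.75 at month 2 (adjusted p 0.0069), with a change of -3.01 (SE 0.36, adjusted p 0.00045). The change was called under all 30 alternatives, the month 2 difference under 29 and the month 1 difference under 24. For Sr01R07C02 the month 1 call was lost without the month 1 array (adjusted p 0.23), the Landrace array of month 2 against 1 (0.078) or the Taihu array of month 1 against 5 (0.081), and the month 2 call without the month 2 array (0.10). Its month 1 call was also lost with no dye term (adjusted p 0.12) and with the third (0.054) or the last (0.17) column of blocks alone. With single arrays left out, its fitted value stayed between 0.97 and 1.45 at month 1 and between -1.94 and -1.57 at month 2.

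Sr02R05C09 was a dim position, with a signal of 367 in Landrace and 182 in Taihu at month 1 and of 309 and 1016 at month 2. Its copies lay between 1.07 and 1.45 at month 1 and between -1.07 and -0.98 at month 2. The Landrace signal was similar in both months while the Taihu signal was higher at month 2. At month 1 the array read 1.29, the second route gave 1.72 and the route over the month 5 array gave 0.34. The fit for Sr02R05C09 gave 1.11 at month 1 (SE 0.28, adjusted p 0.017) and -1.31 at month 2 (adjusted p 0.011). The month 1 value fell to 0.48 with no background subtraction (adjusted p 0.34), and the call was also lost with no dye term (0.27) and with the third column of blocks alone (0.14). For Sr02R05C09 the month 1 call was lost without the month 1 array (adjusted p 0.26) or the Landrace array of month 2 against 1 (0.12). Its month 2 call was lost without the month 2 array (adjusted p 0.090), the Landrace array of month 3 against 2 (0.057) or the Taihu array of month 2 against 1 (0.077). With single arrays left out, its fitted value stayed between 0.87 and 1.48 at month 1 and between -1.70 and -1.13 at month 2.

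The 4 positions that went from Taihu to Landrace had array values from -0.75 to -0.48 at month 1 and from 0.56 to 1.22 at month 2. Sr02R06C02 had a signal of 826 in Landrace and 1538 in Taihu at month 1, and of 1810 and 1135 at month 2. Its copies lay between -0.82 and -0.63 at month 1 and between 1.13 and 1.27 at month 2. The naming rule favours such a lack of overlap. The fit for Sr02R06C02 gave -0.79 at month 1 (SE 0.13, adjusted p 0.0044), and its change of 2.05 (SE 0.14, adjusted p 6.1e-05) was called under all 30 alternatives. Its month 1 call was lost without the month 1 array (fitted -0.86, adjusted p 0.080). Sr01R05C02 had copies between -0.87 and -0.69 at month 1 and between 0.84 and 0.89 at month 2. The fit for Sr01R05C02 gave -0.77 at month 1 and 0.80 at month 2 (SE 0.19 and adjusted p 0.016 for both). For Sr01R05C02 the month 1 call was lost without the month 1 array (adjusted p 0.22), the Landrace array of month 2 against 1 (0.097) or the Taihu array of month 1 against 5 (0.056), and the month 2 call without the month 2 array (0.21) or the Taihu array of month 2 against 1 (0.099). Its month 1 call was also lost with no background subtraction (adjusted p 0.073) and its month 2 call with no dye term (0.074). With single arrays left out, its fitted value stayed between -0.91 and -0.67 at month 1 and between 0.71 and 0.96 at month 2.

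**Figure D3:**
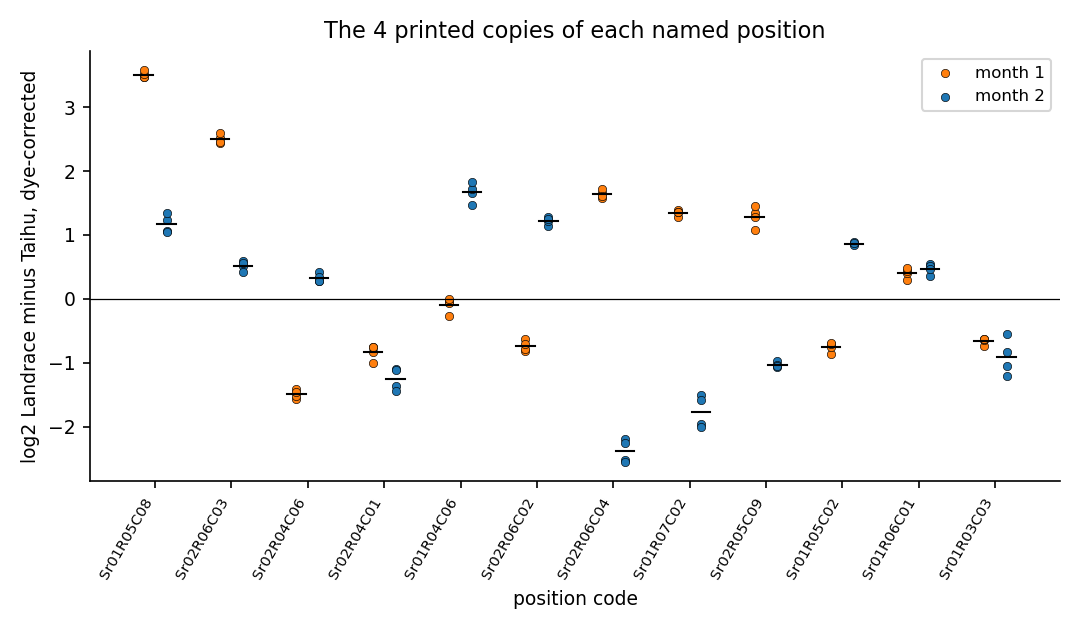
Each point is 1 printed copy of 1 of the 12 named positions, with the dye-corrected log2 difference (Landrace minus Taihu) upward, orange for the month 1 array and blue for the month 2 array; short lines are means of the 4 copies. The copies of the 4 named reversals (Sr01R07C02, Sr02R05C09, Sr02R06C02 and Sr01R05C02) lie on opposite sides of 0 at the 2 months, which the naming rule favours. Copies at month 2 spread more widely at Sr01R07C02 and Sr01R03C03.

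Which breed moved was read from the step between months 1 and 2 within each breed. Over all 138 positions the Landrace step was called at 51 (37.0%), with 26 up and 25 down, and the Taihu step at 44 (31.9%), with 29 up and 15 down. Among the 12 reversals both steps were called at 5, the Landrace step alone at 4 and the Taihu step alone at 3. Of the 8 positions that went from Landrace to Taihu, Landrace fell at 5 and Taihu rose at 6, and of the 4 that went the other way, Landrace rose at 4 and Taihu fell at 2. The positions were chosen for a large Landrace step minus Taihu step, which favours both called steps and these directions, so the counts are a description. Fitted values among the 8 ran from -1.87 to 0.45 for the Landrace step and from -0.24 to 2.63 for the Taihu step. Among all 59 called changes both steps were called at 13, the Landrace step alone at 24, the Taihu step alone at 18 and neither at 4. Where both were called, the 2 steps had the same direction at 7 of 13.

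At Sr01R07C02 both breeds moved, with a Landrace step of -1.23 (SE 0.30, adjusted p 0.013) and a Taihu step of 1.78 (adjusted p 0.0027). At Sr02R05C09 the Taihu step was 2.26 (SE 0.26, adjusted p 0.00038) and the Landrace step was -0.16 (adjusted p 0.69). At Sr01R05C02 the reverse held, with a Landrace step of 1.25 (SE 0.18, adjusted p 0.00091) and a Taihu step of -0.32 (adjusted p 0.18). At Sr02R06C02 the Landrace step was 0.86 and the Taihu step was -1.19 (SE 0.12, adjusted p 0.00091 and 0.00025). For Sr01R05C08, which was not called at month 2, the Taihu step was 4.14 (SE 0.53, adjusted p 0.000625) and the Landrace step was 1.33 (adjusted p 0.083).

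The breed arrays of months 3 to 5 enter the fit that gave the calls, and their values at the reversals were as follows. At month 3 the array read higher in Landrace at 7 of the 8 positions that had gone from Landrace to Taihu, against 70 of all 138. Of the 8, 3 were called higher in Landrace and 0 in Taihu, against 12.3% and 5.80% of all 138. At month 4 the array read higher in Landrace at 6 of the 8 (67 of all 138), with 1 called in Landrace and 0 in Taihu (13.0% and 2.17% of all). At month 5 it read higher in Landrace at 5 of the 8 (80 of all 138), with 1 called in Landrace and 0 in Taihu (2.90% and 2.17% of all). The 1 position that read higher in Taihu at month 3 did so by -0.03. Month 2 had the highest of the 5 fitted Taihu levels at 7 of the 8, against 36 of all 138 positions, and month 1 had the highest Landrace level at 7 of the 8, against 45 of 138, which the choice of positions favours. Sr01R07C02 read 1.98 on the month 3 array and was called again in Landrace (fitted 1.80, adjusted p 0.0072). Of the 4 positions that went from Taihu to Landrace, the month 3 array read higher in Landrace at 2 and none was called, and at month 5 there was 1 call in each direction. Sr01R05C02 was the one called in Taihu at month 5, at -1.28 on the array (fitted -1.09, adjusted p 0.017).

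**Figure D4:**
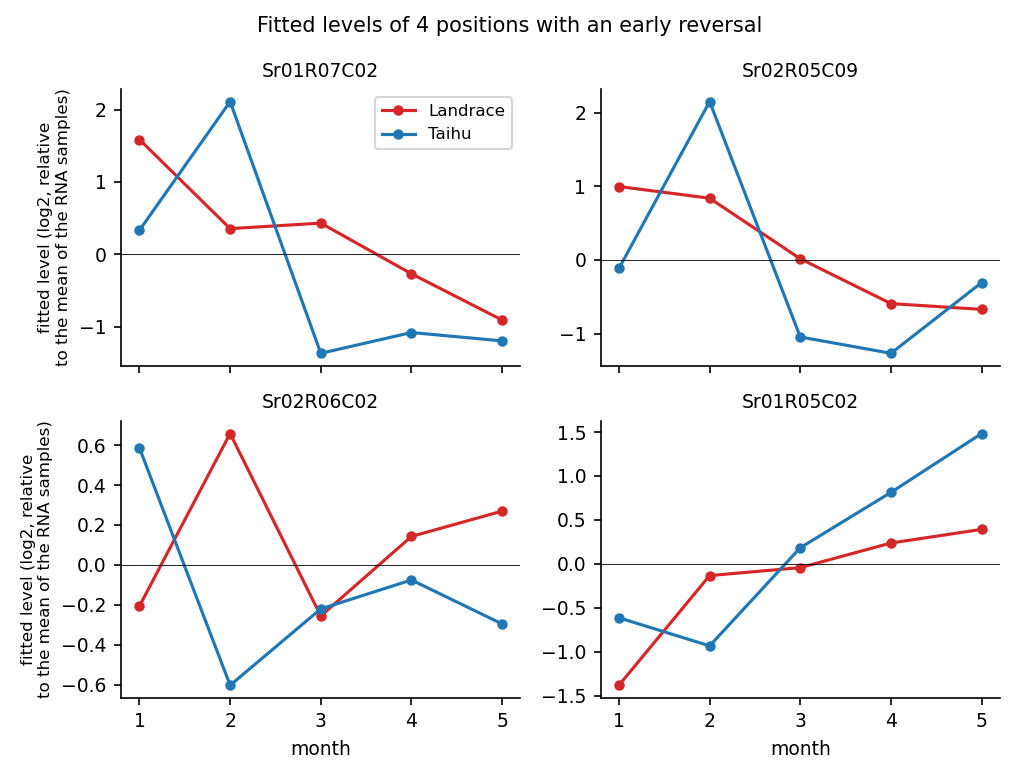
Lines give the fitted level (log2, relative to the mean of the 10 RNA samples) of Landrace (red) and Taihu (blue) across months 1 to 5 at the 4 named reversals, with 1 RNA sample per point and no error over animals. Taihu peaks at month 2 at Sr01R07C02 (2.11) and Sr02R05C09 (2.15) and lies below Landrace at month 3, and the lines cross between months 1 and 2 in every panel.

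Positions called at both months in the same direction numbered 5, with 4 in Taihu and 1 in Landrace. Sr02R04C01 was the firmest, with copies between -1.44 and -1.09 at month 2 and a fitted -1.14 (SE 0.13, adjusted p 0.00051). It was called at both months under all 30 alternatives, and the change of Sr02R04C01 between the months was not called (-0.23, adjusted p 0.21). Sr01R03C03 read -0.66 and -0.91 on the 2 arrays, and its month 2 copies ran from -0.55 in the first column of blocks to -1.21 in the last. The calls of Sr01R03C03 were lost without the month 1 array at month 1 (fitted -0.82, adjusted p 0.099) and without the month 2 array at month 2 (fitted -0.67, adjusted p 0.10). Its month 1 call was also lost with the first column of blocks alone (adjusted p 0.058). The Landrace position, Sr01R06C01, read 0.41 and 0.47. Its month 1 call (fitted 0.38, adjusted p 0.043) was lost under 20 of 30 alternatives, with an adjusted p of 0.39 without the month 1 array and 0.21 without the Taihu array of month 1 against 5. Leaving out single arrays ended the month 1 call of Sr01R06C01 for 12 of 15 arrays and its month 2 call for 3 of 15. Its fitted value then stayed between 0.33 and 0.45 at month 1 and between 0.48 and 0.67 at month 2. Sr01R06C01 was higher in Landrace again at month 3, with a fitted 1.20 (adjusted p 0.00056).

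Brightness, print place and ceiling readings were compared as descriptions, and the signals come from readings that also enter the fit. The median signal at month 1 (geometric mean of both breeds) was 3042 for the month 1 calls, 1878 for the month 2 calls and 1810 for the reversals, against 1298 over all positions. Row of blocks 1 held 28 of its 69 positions called at month 1 and row 2 held 17 of 69, while at month 2 each held 19. A ceiling reading on any array was present at 19 of 140 positions, 11 of the 45 called at month 1, 3 of the 38 called at month 2 and 1 of the 12 reversals. The named positions Sr02R06C02, Sr02R06C03 and Sr02R06C04 were printed side by side, with fitted changes of 2.05, -2.05 and -3.48. The positions on either side of them, Sr02R06C01 and Sr02R06C05, changed by -0.58 and -1.24. The part of brightness, ceiling and print place in the calls was not tested beyond the alternatives given.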

How the data were processed

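The authors deposited 1 file per channel with the intensity of every spot and its local background as linear, unnormalized values. Per the file headers, image software of version 5.1 used a fixed circle for each spot, with a background buffer of 3 and a background width of 5, units not given. Hybridisation and scanning are not given in the sources used here. Tissue was kept in RNAlater and amplified RNA was labelled, per the labels' protocols.

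From these intensities the background median was subtracted from the signal mean, log2(Cy3/Cy5) was centred on each array's median, and the 4 copies were averaged. The first 12 positions of each block, taken to be shared spots, were left out, as were 20 of 8400 spots marked by the image software. Limma 3.58.1 (R 4.3.3; lmFit and eBayes) fitted 10 RNA sample levels and a dye term to 15 arrays with 5 residual degrees of freedom. P-values were two-sided and Benjamini-Hochberg adjusted over 138 positions, leaving out 2 without a value on every array. The fit was also run on simulated data with independent noise of equal size at every position and array. Those data held no ceiling readings, no drift across columns and no dye difference between loops, so the run does not address these. The authors' deposited value table was not used, since its numbered entries could not be paired with positions.

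Named positions were those called with the largest fitted difference at month 1 and month 2, and those called at both months with the largest smaller difference, up to 2 per direction. Positions, lists and rules were chosen with earlier results of these data known. At least 1.5-fold was the size counted on single arrays.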

Additional observations from a re-analysis of the deposited data

Results flagged for a closer look

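The breed difference was not the same at month 1 and month 2: limma's test of the change passed at 59 of 138 positions. Among the named positions the fitted change (log2, month 2 minus month 1) was -3.48 at Sr02R06C04, -3.01 at Sr01R07C02, -2.81 at Sr01R05C08, -2.42 at Sr02R05C09 and -2.05 at Sr02R06C03, all toward Taihu. It was 2.05 at Sr02R06C02, 1.84 at Sr02R04C06, 1.57 at Sr01R05C02 and 1.45 at Sr01R04C06, all toward Landrace. Each of these 9 values passed limma's test of the change itself. Each month has 1 RNA sample per breed, so the test compares these RNA samples and not the ages in general.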

How the results depend on the processing

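Of 914 values of the named positions under alternatives, 910 kept their direction and 58 lost the call. The 4 that turned were changes between months that had not been called: Sr01R03C03 with the copies of the last column of blocks alone (0.0035) and without the month 2 breed array (0.019; -0.29 to 0.019 over arrays left out), Sr01R06C01 with centring on shared positions (-0.025) and Sr02R04C01 with normexp and loess (0.035). The 45 calls at month 1 became 27 with no background subtraction, 23 with no dye term and 29 with the last column of blocks alone. The 38 at month 2 became 24, and the 59 changes 39, with no dye term. The 12 reversals became 20 with normexp and loess, 5 with no background subtraction, 3 with no dye term, and 7, 4 and 4 with the first, the third and the last column alone. At 2-fold, the 37 positions apart on each array became 16 at month 1 and 11 at month 2. Settings by column of blocks and the 2-fold size were chosen after seeing the data. Leaving out each array in turn gave 5 to 60 calls at month 1, 4 to 57 at month 2, 40 to 71 changes, 0 to 19 reversals, and 37 to 40 and 34 to 42 positions 1.5-fold apart. Besides the arrays already named, the reversals became 6 without the Landrace array of month 3 against 2, 7 without that of month 1 against 5, 18 without that of month 5 against 4, 7 without the Taihu array of month 2 against 1 and 19 without that of month 5 against 4. The cause of these shifts was not tested. No paired analysis was possible because no breed has over 1 RNA sample at a month. The alternative with the authors' value table was not run. Readings at the scanner ceiling leave the differences of the brightest positions uncertain.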
